A study of Homo sapiens with 12 samples.

Results

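The 10 survival and death genes of the BCL2 family followed here set the threshold for mitochondrial cell death, and were measured in 4 human acute myeloid leukaemia (AML) lines. They were chosen by name: the anti-apoptotic genes BCL2, BCL2L1, MCL1 and BCL2A1, the effectors BAX and BAK1, and the BH3-only genes BID, BCL2L11, PMAIP1 and BBC3. They make up 10 of the 57865 genes of the table, and 10 of the 15424 genes with enough counts to be tested. The lines KG-1a, OCI-AML3, MV4-11 and MOLM-14 were each treated for 12 h with 10 µM pioglitazone, 10 µM darglitazone or DMSO (the vehicle), with 1 library per line and treatment and 12 libraries in all. Both drugs are thiazolidinediones, ligands of the nuclear receptor PPARγ; they share the thiazolidinedione ring and differ in the tail, which carries a pyridine in pioglitazone and a phenyl-oxazole in darglitazone. All 4 are established lines, each derived from the leukaemia of 1 patient, so a difference between lines is a difference between these lines. As background, MV4-11 and MOLM-14 carry a KMT2A fusion and a FLT3 internal tandem duplication, OCI-AML3 carries mutated NPM1, and KG-1a is an immature CD34+ line.

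The BCL2 family works through binding between its members at the outer mitochondrial membrane. BAX and BAK1 form the pores that release cytochrome c, the anti-apoptotic proteins hold them and the BH3-only proteins in check, and the BH3-only proteins report stress by occupying the anti-apoptotic proteins or by activating the effectors. Myeloid leukaemia cells commonly depend on BCL2 or MCL1, and venetoclax, a BCL2 inhibitor, is used to treat AML.

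For MCL1 and BCL2L1 the splice form decides on which side of this balance the product stands, and the table is by transcript. Junctions of these forms are shown because their estimated shares are described below. Each is 40 bases of GRCh38 read from the GENCODE 29 transcript, 5′ to 3′ on the minus strand, with the 20 bases before the junction in lower case and the 20 after it in capitals. The MCL1 junctions lie on chromosome 1 and the BCL2L1 junctions on chromosome 20.
MCL1-202, exon 1 to exon 2 (150578843 to 150578491): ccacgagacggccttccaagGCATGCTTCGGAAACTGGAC
MCL1-202, exon 2 to exon 3 (150578244 to 150577491): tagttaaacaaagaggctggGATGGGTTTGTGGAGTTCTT
MCL1-201, exon 2 left out (150578843 to 150577491): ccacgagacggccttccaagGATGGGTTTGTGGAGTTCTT
MCL1-204, exon 1 to exon 2 (150579423 to 150578963): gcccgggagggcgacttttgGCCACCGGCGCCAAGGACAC
BCL2L1-201 (31721655 to 31666086): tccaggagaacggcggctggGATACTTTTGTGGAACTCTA
BCL2L1-202 (31721844 to 31666086): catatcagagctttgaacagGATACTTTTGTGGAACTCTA
MCL1-202 encodes the full-length survival protein of 350 residues. Both of its junctions are also in MCL1-204, which has an additional one of its own. MCL1-201 joins the end of exon 1 directly to the last exon and encodes a short form of 271 residues, which is known to promote death. BCL2L1-201 encodes BCL-xL, the survival form of 233 residues. BCL2L1-202 uses an earlier splice site in the same exon and encodes BCL-xS, the death-promoting form of 170 residues.

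On GRCh38, with GENCODE 29 gene bounds, BCL2 (ENSG00000171791) lies at chr18:63123346-63320128, BCL2L1 (ENSG00000171552) at chr20:31664452-31723989, MCL1 (ENSG00000143384) at chr1:150574551-150579738 and BCL2A1 (ENSG00000140379) at chr15:79960889-79971446, all on the minus strand. BAX (ENSG00000087088) lies at chr19:48954815-48961798 on the plus strand and BAK1 (ENSG00000030110) at chr6:33572547-33580293 on the minus strand. BID (ENSG00000015475) lies at chr22:17734138-17774770 on the minus strand and BCL2L11 (ENSG00000153094) at chr2:111119378-111168447 on the plus strand. PMAIP1 (ENSG00000141682) lies at chr18:59899948-59904306 on the plus strand and BBC3 (ENSG00000105327) at chr19:47220822-47232766 on the minus strand. Values sum all annotated transcripts of a gene. The sources used here do not give the strand used in counting, so genes that overlap a member on the other strand are uncertain neighbours. MIR4435-2HG, which overlaps BCL2L11, reached 1523 counts in a library, and the processed pseudogene BAK1P1 reached at most 10.

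The libraries held 1095491 to 64236554 estimated counts, so 3 counts were worth between 0.0448 and 2.63 CPM after the TMM scaling described below. An rRNA-derived entry took 23.5% of the KG-1a pioglitazone library and 6.17% of the OCI-AML3 pioglitazone library, which was also the shallowest, against at most 0.542% elsewhere. Genes expressed in MV4-11 and nearly silent in KG-1a stood in the KG-1a darglitazone library at a median of 4.1% of their MV4-11 level (6 genes). Such shares are used below as an estimate of RNA from other lines; whether they come from carry-over or from the cells was not tested. KG-1a genes stood at 1.96% in the OCI-AML3 pioglitazone library (79 genes), and MOLM-14 genes at 2.02% in the MV4-11 DMSO library (5 genes). The pioglitazone libraries of KG-1a and OCI-AML3 and the KG-1a darglitazone library are called the 3 libraries in doubt below. Without them, KG-1a keeps only its DMSO library. Differences of KG-1a from other lines in that setting rest on that library alone. Line differences that lose their call without them are given with and without them, as are some of the drug values described singly. All 10 myeloid markers passed the count filter, which a gene can pass through 1 line alone, so this does not describe each line. Their summed level was 731 to 1620 CPM per library, and its largest parts in KG-1a were CD34 and PTPRC (mean 497 CPM). MPO and ELANE averaged 2.34 and 3.93 CPM in KG-1a, against 52.1 and 554 CPM in MOLM-14. CD34, which marks immature cells, averaged 654 CPM in KG-1a and at most 2.72 CPM in the other lines, while CD14, a monocyte marker, was at 0 in KG-1a. T cell and B cell markers summed to at most 36.7 and 66.2 CPM, both in KG-1a (CD79B had 38.4 to 47.4 CPM there), with the B cell marker MS4A1 and the erythroid markers HBB, HBA1 and ALAS2 at 0 in all 12 libraries. KRT18, a keratin, had 41.7 to 48 CPM in MOLM-14, 9.55 to 12.7 CPM in MV4-11 and at most 0.209 CPM in the other lines.

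CPM values below are scaled by the trimmed mean of M values (TMM) and compare a gene between libraries. TPM values are also divided by transcript length and compare genes with each other. Errors on means are SDs over the 3 libraries of a line, which are 3 treatments and not repeat cultures, so this spread holds the variation between treatments as well. Intervals on a single library are exact 95% Poisson intervals and cover counting error only. In bulk RNA, fewer cells of a type and less RNA per cell cannot be told apart.

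The 4 lines differed in the level of all 10 genes, and in 9 of them also without the 3 libraries in doubt. By edgeR's quasi-likelihood F test of the line terms, 10 of 10 members had an adjusted p under 0.05, against 72.6% of all genes tested. DESeq2 and limma-voom also called 10 of 10, but both called more of all genes than edgeR did. Of the 15424 genes tested, edgeR called 11198 and limma-voom 12644, so 10 of 10 says less with these methods. The gene that lost its call was BID, whose edgeR adjusted p over the lines was 0.0247, and 0.127 without these 3 libraries. Over the 6 pairs of lines, 41 of 60 gene-by-pair contrasts passed, against 43.8% of all such contrasts, and 33 of 60 without the 3 libraries in doubt. Of the 41 calls, 31 also passed with each of the 12 libraries left out in turn. No share of all genes is given for the counts in these reduced sets of libraries, and 72.6% and 43.8% hold for all 12 libraries. KG-1a differed from OCI-AML3 in 9 members (51.5% of all genes) and from MV4-11 in 9 (47.4%), and from MOLM-14 in 6 (52.7%). OCI-AML3 differed from MV4-11 in 6 (40.7% of all genes) and from MOLM-14 in 6 (33.6%), and MV4-11 differed from MOLM-14 in 5 (37.1%). BCL2 differed in all 6 pairs, and BAK1 and BID in 2 each.

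**Figure D1:**
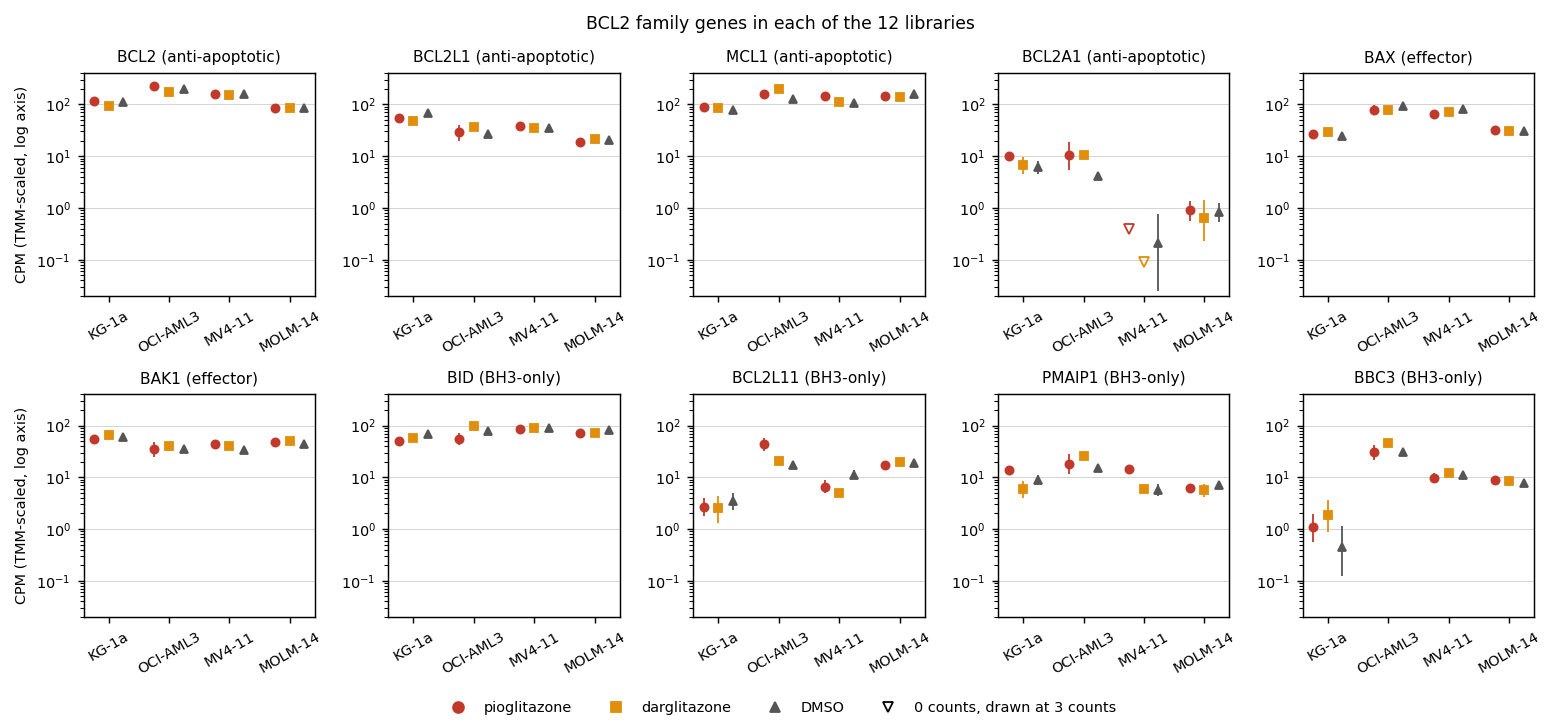
Level of each BCL2 family gene in each of the 12 libraries, in TMM-scaled CPM on a log axis, by line (horizontal) and treatment (colour and shape), with exact 95% Poisson intervals. Open triangles mark libraries with 0 counts, drawn at the value of 3 counts. BCL2A1 is lowest in MV4-11, at most 0.207 CPM, and BBC3 is lowest in KG-1a, at most 1.88 CPM.

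Among the anti-apoptotic genes, BCL2, the target of venetoclax, was highest in OCI-AML3. Its CPM with pioglitazone, darglitazone and DMSO was 114, 94.4 and 110 in KG-1a, 228, 177 and 199 in OCI-AML3, 158, 152 and 161 in MV4-11, and 86.2, 85 and 83.7 in MOLM-14. No library of 1 line overlapped with another line. With all 12 libraries, each step of the order OCI-AML3, MV4-11, KG-1a, MOLM-14 passed. With each library left out in turn, OCI-AML3 over MV4-11 kept its call in 1 of 12 fits, MV4-11 over KG-1a in 12 and KG-1a over MOLM-14 in 3. OCI-AML3 exceeded MOLM-14 by 1.23 on the log2 scale (SE 0.12, 95% interval 0.97 to 1.5, edgeR adjusted p 2.88e-06), and the smallest step, KG-1a over MOLM-14, was 0.32 (SE 0.12, edgeR adjusted p 0.0392). Without the 3 libraries in doubt this step was 0.26 (edgeR adjusted p 0.26), and OCI-AML3 over MV4-11, 0.35 with all libraries (edgeR adjusted p 0.0341), was 0.28 (edgeR adjusted p 0.108).

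BCL2L1, which encodes BCL-xL, had another order, with KG-1a on top. KG-1a held 54.6, 47.7 and 68.2 CPM with pioglitazone, darglitazone and DMSO, OCI-AML3 29, 36.2 and 26.8, MV4-11 37.8, 35.2 and 35.7, and MOLM-14 18.9, 21.7 and 20.8. The KG-1a libraries were above and the MOLM-14 libraries below all others. KG-1a exceeded MOLM-14 by 1.48 (SE 0.18, interval 1.1 to 1.86, edgeR adjusted p 6.68e-06). MV4-11 and OCI-AML3 were not told apart (OCI-AML3 minus MV4-11 −0.24, interval −0.62 to 0.15, edgeR adjusted p 0.324).

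MCL1, a short-lived survival protein, was lowest in KG-1a. KG-1a held 88.2, 86.7 and 77.8 CPM with pioglitazone, darglitazone and DMSO, OCI-AML3 161, 201 and 130, MV4-11 148, 109 and 107, and MOLM-14 146, 140 and 160. All 3 KG-1a libraries lay below the other 9, whose lines overlapped. KG-1a was below OCI-AML3 by a log2 difference of −0.96 (SE 0.17, interval −1.31 to −0.60, edgeR adjusted p 0.000218), and OCI-AML3 was above MV4-11 by 0.44 (SE 0.16, edgeR adjusted p 0.0451). Without the 3 libraries in doubt the difference between OCI-AML3 and MV4-11 was 0.53 (edgeR adjusted p 0.0561), and that of KG-1a from MV4-11 was −0.59 (edgeR adjusted p 0.12), against −0.52 (edgeR adjusted p 0.0166) with all libraries. MOLM-14 was not told apart from OCI-AML3 or MV4-11.

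BCL2A1, an NF-κB target that encodes the survival protein BFL1, was nearly absent from MV4-11. Its counts in MV4-11 were 0 with pioglitazone, 0 with darglitazone and 2 with DMSO, and 3 counts would be 0.388 CPM with pioglitazone and 0.0915 CPM with darglitazone. KG-1a held 9.97, 6.7 and 6.11 CPM with pioglitazone, darglitazone and DMSO, OCI-AML3 10.5, 10.4 and 4.17, and MOLM-14 0.9, 0.641 and 0.828. KG-1a and OCI-AML3 overlapped, and both stood above MOLM-14, which stood above MV4-11. Pooled over the 3 libraries of a line, OCI-AML3 had 509 counts and MV4-11 had 2, a ratio of CPM of 143 with a 95% counting interval of 39.5 to 1186. Pooled ratios, here and below, weight libraries by depth, so that of OCI-AML3 rests mostly on its DMSO library, the lowest of its 3. The mean over libraries was 8.35 ± 3.62 CPM in OCI-AML3 and 0.79 ± 0.133 CPM in MOLM-14 (SD, n = 3 each), with a fitted log2 difference of 3.30 (SE 0.62). OCI-AML3 passed against MV4-11 and against MOLM-14 (edgeR adjusted p 1.63e-05 and 0.000745), while KG-1a and OCI-AML3 were not told apart (edgeR adjusted p 0.894). RNA from other lines, as estimated above, would give 76% of the level in the MV4-11 DMSO library, which holds both counts. The fitted log2 difference of OCI-AML3 from MV4-11 was 7.26, 10.37 without that library and 5.96 without the MV4-11 darglitazone library, so it gives no size; the call held in each.

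BAX, the cytosolic effector, split the lines into a high and a low pair. KG-1a held 26.9, 28.7 and 24 CPM with pioglitazone, darglitazone and DMSO, OCI-AML3 79, 76.9 and 92.3, MV4-11 64.8, 70.1 and 81, and MOLM-14 31.6, 30.6 and 31. Every library of OCI-AML3 and MV4-11 was above every library of KG-1a and MOLM-14. KG-1a was below OCI-AML3 by −1.64 (SE 0.15, interval −1.96 to −1.32, edgeR adjusted p 4.5e-07). Within the high pair (OCI-AML3 minus MV4-11 0.20, edgeR adjusted p 0.273) and within the low pair (KG-1a minus MOLM-14 −0.23, edgeR adjusted p 0.198) the lines were not told apart. Without the 3 libraries in doubt, KG-1a minus MOLM-14 was −0.57, from the KG-1a DMSO library alone.

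BAK1, the effector that resides in the mitochondrial membrane, was highest in KG-1a. KG-1a held 54.2, 64.9 and 59.9 CPM with pioglitazone, darglitazone and DMSO, OCI-AML3 35.1, 40.4 and 34.7, MV4-11 44.5, 40.1 and 34.3, and MOLM-14 48.4, 49.6 and 44.9. KG-1a was above OCI-AML3 by 0.69 (SE 0.15, interval 0.38 to 1, edgeR adjusted p 0.00114) and above MV4-11 by 0.59 (SE 0.14, edgeR adjusted p 0.00293). The values were 0.65 for both pairs without the 3 libraries in doubt (edgeR adjusted p 0.024 against OCI-AML3 and 0.0282 against MV4-11). The other 4 pairs did not pass.

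BID, which caspase-8 cleaves to link death receptors to mitochondria, was lowest in KG-1a. KG-1a held 51.2, 57.8 and 68.5 CPM with pioglitazone, darglitazone and DMSO, OCI-AML3 55.3, 99.9 and 77.4, MV4-11 85.1, 89.3 and 91, and MOLM-14 72.5, 71.9 and 82.3. OCI-AML3 spanned nearly the whole range of the gene. KG-1a was below MV4-11 by −0.59 (SE 0.16, interval −0.92 to −0.25, edgeR adjusted p 0.0064), but without the 3 libraries in doubt the difference was −0.47 (edgeR adjusted p 0.102). KG-1a was also below OCI-AML3 (−0.41, SE 0.16, edgeR adjusted p 0.0459), again not without these 3 libraries (−0.46, edgeR adjusted p 0.11). The other 4 pairs did not pass.

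BCL2L11, which encodes BIM, an activator of BAX and BAK1 under FOXO3 control, was lowest in KG-1a. KG-1a held 2.72, 2.51 and 3.51 CPM with pioglitazone, darglitazone and DMSO, OCI-AML3 43, 20.7 and 17.4, MV4-11 6.6, 5 and 11.3, and MOLM-14 17, 19.9 and 18.6. KG-1a did not overlap with any other line, nor MV4-11 with OCI-AML3 or MOLM-14. Pooled counts put OCI-AML3 at 6.22 times KG-1a (95% counting interval 4.9 to 8.02). The fitted difference of KG-1a from OCI-AML3 was −3.09 (SE 0.39, interval −3.92 to −2.26, edgeR adjusted p 1.21e-05), and −2.68 (edgeR adjusted p 0.00125) without the 3 libraries in doubt. Without these, KG-1a against MV4-11 lost its call (−1.35, edgeR adjusted p 0.0529, against −1.36 and 0.00875 with all libraries). The shallow OCI-AML3 pioglitazone library, which weighs least in the pooled ratio, is the high one. RNA from other lines would, by the same estimate, give 26.3% of the level in the KG-1a darglitazone library.

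PMAIP1, which encodes NOXA, a BH3-only protein that binds MCL1, stood out in OCI-AML3. KG-1a held 13.6, 5.86 and 8.83 CPM with pioglitazone, darglitazone and DMSO, OCI-AML3 18.4, 25.9 and 15.4, MV4-11 14.2, 5.92 and 5.7, and MOLM-14 6.21, 5.67 and 7.22. All OCI-AML3 libraries were above all others, the nearest being the MV4-11 pioglitazone library. OCI-AML3 exceeded MOLM-14 by 1.70 (SE 0.35, interval 0.96 to 2.44, edgeR adjusted p 0.00152) and MV4-11 by 1.39 (SE 0.35, edgeR adjusted p 0.00538), and KG-1a was below OCI-AML3 by −1.19 (SE 0.35, edgeR adjusted p 0.0111). Without the 3 libraries in doubt the first 2 still passed (1.87 and 1.57, edgeR adjusted p 0.00219 and 0.0071), while KG-1a against OCI-AML3 did not (−1.25, edgeR adjusted p 0.0935). Without the OCI-AML3 darglitazone library the difference from MV4-11 did not pass either (edgeR adjusted p 0.0646). KG-1a, MV4-11 and MOLM-14 were not told apart.

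BBC3, which encodes PUMA, a BH3-only protein, had, after BCL2A1, the widest spread of mean CPM between lines among the 10 genes. KG-1a held 1.11, 1.88 and 0.453 CPM with pioglitazone, darglitazone and DMSO, from 11, 9 and 4 counts. OCI-AML3 held 30.7, 46 and 30.6, MV4-11 9.7, 12.1 and 10.9, and MOLM-14 8.87, 8.44 and 7.88. KG-1a lay below and OCI-AML3 above all other libraries. Pooled counts put OCI-AML3 at 33.6 times KG-1a (95% counting interval 22.5 to 52.5). The fitted difference of KG-1a from OCI-AML3 was −5.07 (SE 0.33, interval −5.78 to −4.36, edgeR adjusted p 1.62e-08). It was −6.33 without the 3 libraries in doubt, where KG-1a is its DMSO library alone, with 4 counts. MV4-11 and MOLM-14 were not told apart (0.35, interval −0.17 to 0.88, edgeR adjusted p 0.287). RNA from other lines would, by the same estimate, give 5.5%, 38.9% and 35% of the KG-1a level with pioglitazone, darglitazone and DMSO.

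In TPM summed over all transcripts of a gene, MCL1 was the highest of the 4 anti-apoptotic genes in all 12 libraries. Its share was highest in MOLM-14. The MCL1 sum includes the noncoding MCL1-203, at 14% to 29.7% of it. It also includes the short form MCL1-201, at 0% to 40.6%, so shares and ratios are not those of the survival form alone. The BCL2L1 sum likewise includes the death-promoting BCL2L1-202, at 0% to 36.6%, and transcripts with a partial coding sequence, at 12.5% to 63.4%. MCL1 took 36.6% ± 1.47 of the summed TPM of the 4 anti-apoptotic genes in KG-1a, 46.5% ± 5.39 in OCI-AML3, 47.2% ± 5.13 in MV4-11, while MOLM-14 had 65.2% ± 4.01 (SD, n = 3 libraries each). BCL2L1 took 29.1% ± 3.48 in KG-1a, 14.4% ± 2.43 in OCI-AML3, 18.4% ± 0.971 in MV4-11, while MOLM-14 had 13.1% ± 2.37. BCL2 took 25.6% ± 0.757 in KG-1a, 32.1% ± 5.67 in OCI-AML3, 34.3% ± 5.02 in MV4-11, while MOLM-14 had 20.7% ± 2.28. MOLM-14 had the highest TPM ratio of MCL1 to BCL2, with libraries between 2.67 and 3.77, whereas the ratio lay between 1.14 and 1.97 in the other 9 libraries. KG-1a had the highest TPM ratio of BCL2L1 to BCL2, between 0.995 and 1.3, against 0.347 to 0.69 elsewhere. These ratios describe mRNA and carry no test.

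**Figure D2:**
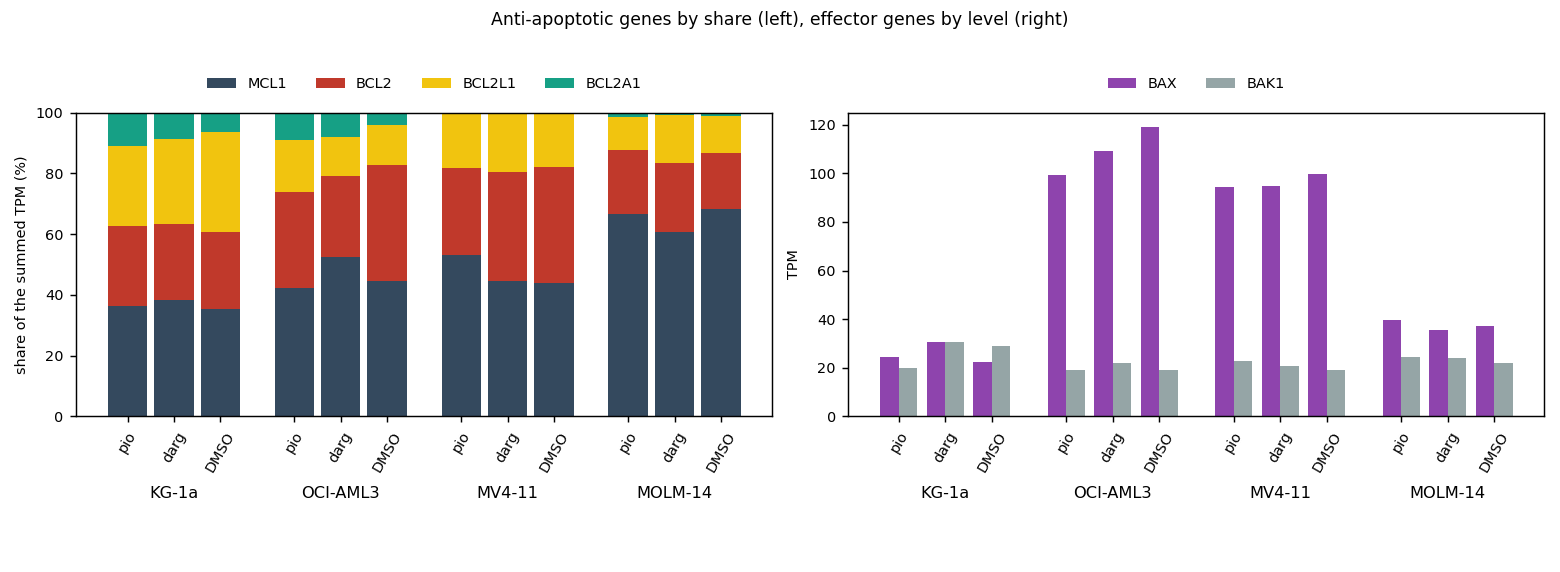
Left, share of each anti-apoptotic gene in the summed TPM of the 4 genes, in percent, per library. Right, TPM of BAX and BAK1 per library. Libraries are grouped by line and ordered pioglitazone (pio), darglitazone (darg), DMSO; MCL1 takes the largest share in MOLM-14 (mean 65.2%), and BAX exceeds BAK1 most in OCI-AML3 and MV4-11.

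The ratio of the effectors is computed from BAX, so its split of the lines is not a result separate from that of BAX. The mean TPM per line was 20.1 to 26.6 for BAK1 and 25.9 to 109 for BAX. The TPM ratio of BAX to BAK1 was 0.995 ± 0.217 in KG-1a, 5.45 ± 0.67 in OCI-AML3, 4.64 ± 0.552 in MV4-11, while MOLM-14 had 1.59 ± 0.0929 (SD, n = 3 libraries each). The KG-1a libraries (1.21 with pioglitazone, 1 with darglitazone, 0.776 with DMSO) all lay below the MOLM-14 libraries, and both lines lay below the other pair. Ordered by TPM within a library, BID came first in the 6 KG-1a and MOLM-14 libraries and BAX in the 6 OCI-AML3 and MV4-11 libraries. The BAX TPM, here and in the ratio, includes the retained-intron transcript BAX-211, at 0% to 19.4% of it. It also includes BAX-212, annotated for nonsense-mediated decay, at 0% to 24.8%. The BID TPM includes the short transcripts BID-209 (700 bases), at 29.6% to 71.2% of it, and BID-211 (419 bases), at 0% to 40.1%. The order by TPM therefore rests on how reads were divided between long and short transcripts. MCL1 and BID were among the first 4 of the 10 genes in 12 of 12 libraries, and BCL2A1 was never above place 7. The summed TPM of BCL2L11, PMAIP1 and BBC3, the BH3-only members other than BID, was 7.91 ± 1.14 in KG-1a, 59.6 ± 14.6 in OCI-AML3, 16.9 ± 1.78 in MV4-11, while MOLM-14 had 18 ± 0.557. With BID added, it was 63.3 ± 13.2 in KG-1a, 134 ± 24.4 in OCI-AML3, 98.8 ± 7.13 in MV4-11, while MOLM-14 had 83.4 ± 5.5. Both sums leave out BH3-only genes that are not members. Of these, BIK averaged 42.4 CPM in MOLM-14 and 0.11 CPM in OCI-AML3, and BMF 65.5 CPM in MV4-11 and 23.9 CPM in OCI-AML3.

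Neither drug moved a BCL2 family gene past the test. Here each line counts as 1 replicate, which gives n = 4 for each treatment, and enters the model as a term. With pioglitazone against DMSO, 0 of 10 members had an edgeR adjusted p under 0.05 (background 0%), 0 of 10 had an unadjusted p under 0.05 (background 5.96%), and DESeq2 called 0 of the 3 members for which it gave an adjusted p (background 0.48%). With darglitazone against DMSO, edgeR again called 0 of 10 (background 0%), with 0 of 10 at an unadjusted p under 0.05 (background 3.4%), and DESeq2, with an adjusted p for all 10, called 0 (background 0.0389%). Darglitazone against pioglitazone gave 0 of 10 by edgeR (background 0%), 0 of 10 at an unadjusted p under 0.05 (background 3.51%) and 0 by DESeq2, again with an adjusted p for 3 of 10 (background 0.0778%). These DESeq2 backgrounds are shares of all 15424 genes, those with no adjusted p included. limma-voom called 0 of 10 in each contrast. The median log2 fold change of the 10 members was 0.08 with pioglitazone, 0.01 with darglitazone and −0.01 for darglitazone against pioglitazone, beside −0.02, 0.01 and 0.03 over all genes tested. Both drug contrasts use the same DMSO libraries, so an error in these enters both.

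**Figure D3:**
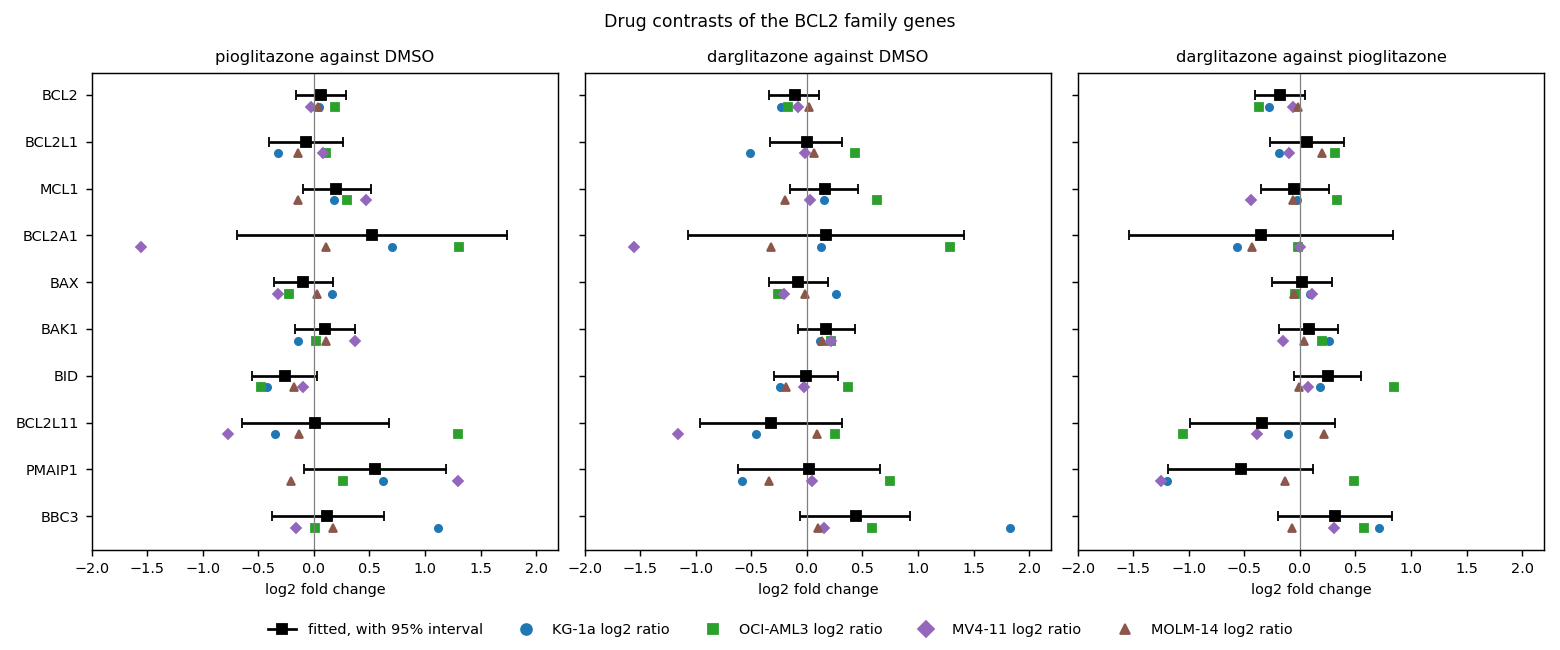
Fitted log2 fold change of each member with its 95% interval (black squares), and below it the log2 ratio within each line with 2 counts added (coloured symbols), for pioglitazone against DMSO, darglitazone against DMSO and darglitazone against pioglitazone. All 30 intervals include 0; the MV4-11 points of BCL2A1 rest on 2 counts in all.

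The 95% intervals below are those of the edgeR model. BCL2 lay between −0.16 and 0.29 with pioglitazone and between −0.34 and 0.11 with darglitazone on the log2 scale. BAX lay between −0.36 and 0.17 with pioglitazone and between −0.34 and 0.19 with darglitazone. Outside that interval, BAX with darglitazone was at −0.39 (SE 0.13, edgeR adjusted p 1) with protein-coding transcripts only and at −0.46 (SE 0.19) with counts thinned to the shallowest library. BCL2L1 lay between −0.40 and 0.26 with pioglitazone and between −0.33 and 0.32 with darglitazone. MCL1 was at 0.20 (SE 0.14, interval −0.10 to 0.51) with pioglitazone and 0.16 (SE 0.14, interval −0.15 to 0.46) with darglitazone. The widest interval was that of BCL2A1, −0.69 to 1.74 with pioglitazone and −1.07 to 1.41 with darglitazone, and 2 of its MV4-11 libraries had no count.

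The values nearest to a shift with pioglitazone were those of PMAIP1 and BID. PMAIP1 had 14.2 CPM with pioglitazone in MV4-11 (Poisson interval 11.7 to 17.1), against 5.7 with DMSO (4.29 to 7.42). In KG-1a it had 13.6 CPM with pioglitazone (11.4 to 16.1) against 8.83 with DMSO (6.98 to 11), in OCI-AML3 18.4 (11.4 to 28.2) against 15.4 (14.5 to 16.4), and in MOLM-14 6.21 against 7.22. It was higher in 3 of 4 lines, most in MV4-11, while it was lower in MOLM-14. The fitted log2 fold change was 0.55 (SE 0.30, interval −0.09 to 1.19, edgeR adjusted p 0.885), and 0.70 (SE 0.37, edgeR adjusted p 1) without the 3 libraries in doubt.

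BID was lower with pioglitazone in 4 of 4 lines, with 51.2 CPM with pioglitazone against 68.5 with DMSO in KG-1a, 55.3 against 77.4 in OCI-AML3, 85.1 against 91 in MV4-11 and 72.5 against 82.3 in MOLM-14. The fitted value was −0.26 (SE 0.14, interval −0.56 to 0.03, edgeR adjusted p 0.875). Of all genes, 10.7% were lower with pioglitazone in all 4 lines, and 1 of 10 members was. No member was higher in all 4 lines with pioglitazone, against 5.98% of all genes. The larger BID ratios came from OCI-AML3 and KG-1a, whose pioglitazone libraries are both in doubt, and without the 3 libraries in doubt the value was −0.07 (SE 0.15).

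With darglitazone, BBC3 and BAK1 were higher than with DMSO in 4 of 4 lines, 2 of 10 members against 7.09% of all genes. BBC3 had 1.88 CPM with darglitazone against 0.453 with DMSO in KG-1a (9 and 4 counts), 46 against 30.6 in OCI-AML3, 12.1 against 10.9 in MV4-11 and 8.44 against 7.88 in MOLM-14. Only in OCI-AML3 were the Poisson intervals of the 2 libraries apart (43.2 to 49 and 29.3 to 31.9). The fitted value was 0.44 (SE 0.23, interval −0.06 to 0.93, edgeR adjusted p 1), and 0.26 (SE 0.19) without the 3 libraries in doubt. BAK1 had 64.9 CPM with darglitazone against 59.9 with DMSO in KG-1a, 40.4 against 34.7 in OCI-AML3, 40.1 against 34.3 in MV4-11 and 49.6 against 44.9 in MOLM-14, a fitted 0.17 (SE 0.12, interval −0.08 to 0.43, edgeR adjusted p 1). No member was lower in all 4 lines with darglitazone, against 7.12% of all genes.

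Darglitazone and pioglitazone, at the same dose and time, were not told apart in any of the 10 genes. The p-values of this contrast were adjusted over all 15424 genes, and the smallest adjusted p among the members was 0.98. BCL2 was lower with darglitazone than with pioglitazone in 4 of 4 lines, 1 of 10 members against 4.62% of all genes, and no member was higher in all 4 (8.66% of all genes). The BCL2 difference was −0.18 (SE 0.11, interval −0.40 to 0.05, edgeR adjusted p 0.98), and −0.10 without the 3 libraries in doubt. PMAIP1 differed by −0.53 (interval −1.19 to 0.12) and BID by 0.25 (interval −0.05 to 0.55). Without the 3 libraries in doubt these were −0.60 for PMAIP1 and 0.08 for BID. In this model the intervals reach past 1 log2 unit in PMAIP1 and BCL2A1, and at most 0.40 in BCL2, BCL2L1, MCL1, BAX and BAK1.

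The response to the drugs was also compared between lines, as the mean of both drugs against DMSO. Of all genes, 1 passed by edgeR (0.00648%), and 0 of 10 members did; at an unadjusted p under 0.05 the shares were 3.05% of all genes and 0 of 10 members. The members with the smallest unadjusted p in this edgeR test were BCL2A1 (0.0626) and BCL2L11 (0.0798). In OCI-AML3, BCL2A1 had 10.5 CPM with pioglitazone (12 counts, Poisson interval 5.44 to 18.4) and 10.4 with darglitazone (9.03 to 11.8), against 4.17 with DMSO (3.69 to 4.69), while in MOLM-14 it had 0.9 and 0.641 CPM with these drugs, against 0.828 with DMSO. BCL2L11 in OCI-AML3 had 43 CPM with pioglitazone (49 counts, Poisson interval 31.8 to 56.8) and 20.7 with darglitazone (18.8 to 22.7), against 17.4 with DMSO (16.4 to 18.4). In MV4-11 the same gene had 6.6 CPM with pioglitazone (4.91 to 8.67) and 5 with darglitazone (4.27 to 5.83), against 11.3 with DMSO (9.28 to 13.6). The BCL2L11 levels of both drugs lay above DMSO in OCI-AML3 and below it in MV4-11. The adjusted p of both genes was 1 by edgeR. Each of these values is 1 library, and the OCI-AML3 pioglitazone library is the shallowest of the series.

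The transcripts of the members were described next. The table holds 84 of them, 80 above 0 in at least 1 library, and 52 passed the count filter among 55176 tested transcripts. In each drug contrast 0 of 52 passed (edgeR, background 0% with pioglitazone, 0% with darglitazone and 0% between the drugs). Between the lines, 1 of 52 passed (5.54% of all transcripts), BCL2-202 (edgeR adjusted p 0.00634). BCL2-202 is the longest of the BCL2 transcripts (7461 bases) and shares its coding sequence with BCL2-201. Together they took 85.9% to 92.9% of the BCL2 TPM, and BCL2-203, which encodes a shorter protein of 205 residues, took 7.06% to 14.1%.

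Full-length MCL1-202 held 43.4%, 68.5% and 35.5% of the MCL1 TPM in KG-1a with pioglitazone, darglitazone and DMSO, 57.2%, 51% and 59.5% in OCI-AML3, 51.4%, 57.9% and 56.8% in MV4-11, and 57.4%, 58.2% and 47% in MOLM-14. The short form MCL1-201, which carries the junction with exon 2 left out shown above, held 19.9%, 8.37% and 40.6% in KG-1a, 0%, 15.7% and 5.51% in OCI-AML3, 13.1%, 14.4% and 14% in MV4-11, and 17.7%, 19.6% and 24.7% in MOLM-14. The 3 KG-1a libraries alone spanned 8.37% to 40.6%, most of the range over all 12. A noncoding transcript, MCL1-203, held a further 14% to 29.7%, and MCL1-204, which encodes 197 residues, at most 13.4%.

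BCL-xL is encoded by BCL2L1-201 and BCL2L1-203, which together held 74.3%, 79.3% and 70.8% of the BCL2L1 TPM in KG-1a with pioglitazone, darglitazone and DMSO. They held 0%, 67.9% and 65.9% in OCI-AML3, 35.7%, 71% and 87.5% in MV4-11, and 78.2%, 32.6% and 57.7% in MOLM-14. The value of 0% is that of the OCI-AML3 pioglitazone library, which had 33 BCL2L1 counts. The death-promoting form BCL2L1-202 held 36.6% there, 33.6% with pioglitazone in MV4-11, 23.4% with darglitazone in MOLM-14, and at most 3.32% in the other 9 libraries. The rest, 12.5% to 63.4% per library, lay in BCL2L1-204 to BCL2L1-209. Their annotated coding sequence is partial and they are counted with neither form, so the shares of both forms leave this part unassigned. No BCL2L1 or MCL1 transcript passed the test between lines or between treatments. These shares are the work of the program that divided reads between transcripts, and the forms share most of their sequence.

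**Figure D4:**
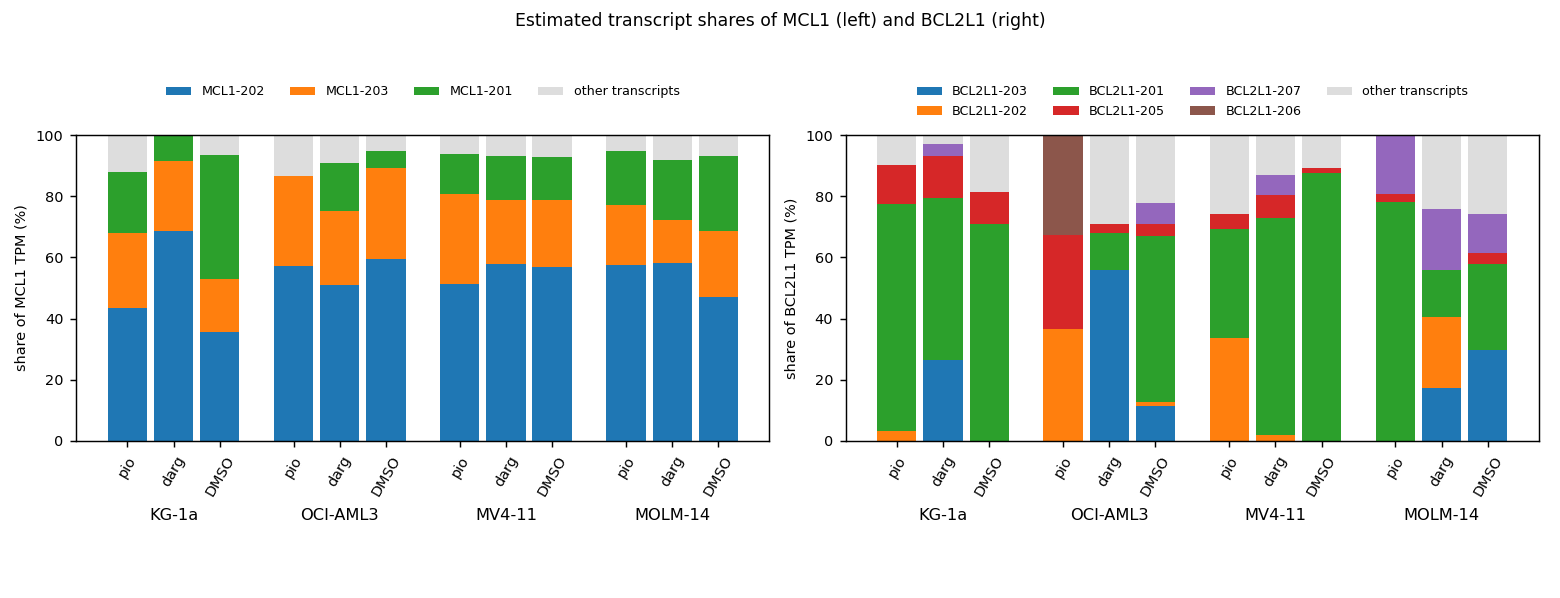
Estimated share of each transcript in the TPM of MCL1 (left) and BCL2L1 (right), in percent, per library; transcripts that hold at least 10% of their gene in 1 line on average are coloured. MCL1-202 holds 35.5% to 68.5% of MCL1, and BCL2L1-201 and BCL2L1-203, which encode BCL-xL, range from 0% to 67.9% of BCL2L1 within OCI-AML3 alone. Transcripts with a partial coding sequence, assigned to neither BCL2L1 form, hold 12.5% to 63.4%.

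Other genes of the pathway were read from lists. Of 10 other BCL2 family genes tested (of 13 listed), 8 differed between lines by edgeR (72.6% of all genes tested), and 0 passed in any drug contrast by edgeR or limma-voom (at an unadjusted p under 0.05 by edgeR, BCL2L2 with each drug). DESeq2 also called 0, but gave an adjusted p with pioglitazone for 1 of the 10. BIK, a BH3-only gene, had 42.5, 42.8 and 41.9 CPM in MOLM-14 with pioglitazone, darglitazone and DMSO, and at most 0.284 CPM in OCI-AML3 (edgeR adjusted p over the lines 8.16e-10). BMF, another BH3-only gene, was highest in MV4-11 at 59.8 to 75.5 CPM, and BCL2L10, an anti-apoptotic gene, was found at 8.4 to 9.7 CPM in MV4-11 and at most 0.628 elsewhere. BCL2L2, which encodes BCL-w, had the smallest p of this list with pioglitazone: a log2 fold change of 0.70 (SE 0.23, edgeR adjusted p 0.695), higher in 4 of 4 lines. It had 12.6 CPM with pioglitazone against 6.79 with DMSO in KG-1a, 27.2 against 10.6 in OCI-AML3, 21.7 against 13.7 in MV4-11 and 12.3 against 11.3 in MOLM-14. Without the 3 libraries in doubt its value was 0.39 (SE 0.23, edgeR adjusted p 1).

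Downstream of the pore, 7 of 10 genes of the pore and apoptosome list and 5 of 6 executioner caspases and substrates differed between lines (72.6% of all genes tested), and none passed with a drug (at an unadjusted p under 0.05, ENDOG with each drug, by edgeR). APAF1, the apoptosome scaffold, was lowest in KG-1a at 14.7 to 23.5 CPM, against 29 to 59.4 elsewhere. Of the 5 inhibitor of apoptosis genes, 3 differed between lines, below the 72.6% of all genes. BIRC5 (survivin) had 59.5 CPM with pioglitazone against 85.5 with DMSO in KG-1a, 44.7 against 140 in OCI-AML3, 61.6 against 99.9 in MV4-11 and 101 against 113 in MOLM-14. Its log2 fold change was −0.70 (SE 0.17, edgeR adjusted p 0.559), or −0.51 (SE 0.18, edgeR adjusted p 1) without the 3 libraries in doubt. BIRC5 was the gene of this list that DESeq2 called with pioglitazone, 1 of the 2 genes for which it gave an adjusted p (0.48% of all genes tested). By edgeR 0 of 5 passed with either drug. With darglitazone the BIRC5 log2 fold change was −0.41 (SE 0.17, unadjusted p 0.029 by edgeR), and −0.48 (SE 0.15) without the 3 libraries in doubt.

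Upstream, 8 of 10 death receptor genes and 15 of 16 regulators of the family differed between lines (72.6% of all genes tested), and none passed with a drug by edgeR or limma-voom. DESeq2 called none either, but with pioglitazone it gave an adjusted p for only 3 of 10 and 8 of 16. Those at an unadjusted p under 0.05 by edgeR were USP9X with pioglitazone, DDIT3 and STAT5A with darglitazone, and TNFRSF1A and USP9X between the drugs. TNFRSF10B, the TRAIL receptor DR5, had 3.56 to 4.75 CPM in KG-1a and 90.6 to 208 in the other lines, while CASP8 was highest in KG-1a at 61.6 to 76.4 CPM, against 16.1 to 23.5 elsewhere. MDM2, a ubiquitin ligase, was highest in OCI-AML3 at 313 to 411 CPM and lowest in KG-1a at 42.7 to 60.4. STAT5A, an activator of BCL2L1 and MCL1 transcription, was highest in KG-1a at 374 to 442 CPM and lowest in OCI-AML3 at 7.7 to 13.2. Of the regulators, DDIT3, a stress factor known to induce BIM, was at a log2 fold change of 0.94 with darglitazone (SE 0.33, edgeR adjusted p 1), with 6.91 CPM against 2.38 with DMSO in KG-1a, 47.9 against 12.9 in OCI-AML3, 12.5 against 9.85 in MV4-11 and 19.6 against 18.9 in MOLM-14. It was 0.74 (SE 0.33, edgeR adjusted p 1) without the 3 libraries in doubt. USP9X, the deubiquitinase of MCL1, was at 0.48 with pioglitazone (SE 0.15, edgeR adjusted p 0.669), with 162 CPM against 97.3 with DMSO in KG-1a, 126 against 69.7 in OCI-AML3, 73.6 against 67 in MV4-11 and 62.9 against 55.1 in MOLM-14. Its value without the 3 libraries in doubt was 0.12 (SE 0.14, edgeR adjusted p 1).

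As a description over the 12 libraries, which share 4 lines and differ in depth, Pearson's r of log2 CPM was computed between each member and all protein-coding genes tested. Within the family, BCL2 and BAX went together (0.89), BAX and BAK1 went opposite ways (−0.90), and MCL1 went with BCL2L11 (0.84) and BBC3 (0.84) and against BCL2L1 (−0.71). BCL2L1 also went against BCL2L11 (−0.78). The genes most like each member were SUPT16H, FBXL5 and PTGER2 for BCL2 (0.97 to 0.99), CD82, C2CD2 and PRKAR1B for BCL2L1 (0.97 each), EIF2S2, TMEM268 and PSAT1 for MCL1 (0.95 to 0.97), and PARP1, FAIM and KPNA5 for BCL2A1 (0.97 each). They were CEACAM4, DENND1A and CACNA2D3 for BAX (0.97 to 0.98), PSAP, CAPG and ZNHIT6 for BAK1 (0.96 each), and HYLS1 and PCDHGA6 for BID (0.94 to 0.95). For the stress-induced BH3-only genes they were LUC7L2, NOM1 and TRA2B for BCL2L11 (0.96 to 0.98), KBTBD2, FAF2 and KLF5 for PMAIP1 (0.89 to 0.92), and FZD1, ATG7 and CHCHD3 for BBC3 (0.98 to 0.99). PMAIP1 had the lowest of these values.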

How the data were processed

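RNA of 4 AML cell lines was sequenced after 12 h of treatment, with 1 library per line and treatment. Per the labels' protocols, total RNA was extracted with RNeasy columns, depleted of ribosomal RNA and made into stranded libraries. The submitters' processing notes name fastp, FastQC, STAR, featureCounts, DESeq2 and the GRCh38 genome; their roles and versions, and the program that divided reads between transcripts, are not given in the sources used here. The authors deposited 1 table of estimated counts per transcript, with no normalization apparent in the values (89.8% of the values above 0 are not whole, at a tolerance of 1e-06).

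Of 203027 transcripts, 202941 matched GENCODE 29 (99.958%), and the rest held at most 0.0169% of a library. Counts were summed per gene and rounded. Genes were kept by filterByExpr (minimum count 10, minimum total 15), scaled by TMM and tested with edgeR 4.0.16 in R 4.3.3, using robust quasi-likelihood F tests with terms for line and treatment (6 residual degrees of freedom) and Benjamini-Hochberg adjustment over 15424 genes; a call is an adjusted p under 0.05. The response between lines was tested with terms for line, drug against DMSO, their product and the difference between the drugs. The pairing of treatments comes from the line itself, which each of the 3 treatments shares. TPM was computed from GENCODE transcript lengths. CPM is scaled by TMM, and log2 ratios within a line use a prior count of 2. Single-library intervals are exact 95% Poisson intervals; they and the floor of 3 counts cover counting error only. The scripts were checked on simulated counts with 200 changed genes.

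The members, the gene lists and the tests were chosen with earlier results of these data known. All 10 members are named. Of each other list, the naming rule takes at most 4 genes past the threshold, or failing those its 2 lowest p-values; for likeness it takes the 3 protein-coding genes with the highest r, and it takes transcripts with at least 10% of the TPM of a member in at least 1 line. A few genes that this rule names are not reported here. Alternatives were RLE size factors, DESeq2 1.42.0, limma-voom (limma 3.58.1), no count filter, no line term, protein-coding transcripts only, counts thinned to 1095314 per library, leaving out each library and each line, and leaving out the 3 libraries in doubt. Nothing states that the libraries of a line come from separate cultures, so p-values measure only the spread between these samples.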

Additional observations from a re-analysis of the deposited data

Results flagged for a closer look

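PMAIP1 with darglitazone in OCI-AML3 stood at 25.9 CPM, while the other 3 darglitazone libraries held 5.67 to 5.92 CPM. The gap to the nearest of the 4 values was 0.99 of their range, above Dixon's 95% critical value for 4 samples. That value is for repeat samples of 1 population, while these 4 libraries are 4 lines, so it serves here only as a flag. In all, 60 groups of 4 values from the same 12 libraries were examined and 1 passed. The chance rate of about 1 in 20 likewise holds for repeat samples and not for these groups. OCI-AML3 also had the highest PMAIP1 level with pioglitazone (18.4 CPM) and with DMSO (15.4 CPM).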

How the results depend on the processing

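Over 24 alternatives, 720 member values of the drug contrasts were recomputed. DESeq2 gave no adjusted p for 14 of them, 0 of the others passed, the smallest adjusted p was 0.434, and 57 values, in 16 of 30 results, had the opposite sign to the reported one, all at most 0.51 in size. Without the 3 libraries in doubt, log2 values turned to −0.02 for BCL2, 0.03 for BCL2L1 and −0.33 for BCL2L11 with pioglitazone, to 0.01 for BID with darglitazone, and to 0.02 for BCL2A1, −0.03 for BAX, −0.08 for BAK1 and 0.04 for BCL2L11 between darglitazone and pioglitazone. With thinned counts they turned to 0.17 for BCL2L1 with pioglitazone, −0.39 for PMAIP1 with darglitazone and −0.15 for BAX between the drugs. With no count filter they turned to −0.06 for BCL2L11 with pioglitazone and −0.04 for PMAIP1 with darglitazone. With protein-coding transcripts only they turned to −0.04 for BBC3 with pioglitazone, −0.09 for PMAIP1 with darglitazone and −0.13 for BAX between the drugs, and with limma-voom to 0.02 for BID with darglitazone and to 0.01 for BCL2A1 and −0.01 for BAX between the drugs. The cause was not tested.

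Leaving out a library or line gave, with pioglitazone, ranges of −0.01 to 0.17 for BAK1, −0.02 to 0.24 for BBC3, −0.17 to 0.06 for BCL2L1 and −0.44 to 0.31 for BCL2L11. With darglitazone they were −0.51 to 0.45 for BCL2A1, −0.64 to 0.01 for BCL2L11, −0.18 to 0.05 for BID, −0.02 to 0.28 for MCL1 and −0.36 to 0.22 for PMAIP1. Between the drugs they were −0.01 to 0.17 for BAK1, −0.03 to 0.07 for BAX, −0.05 to 0.20 for BCL2L1, −0.60 to 0.05 for BCL2L11 and −0.20 to 0.09 for MCL1.

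Without the pairing by line (no replicate block), 0, 0 and 0 genes passed with pioglitazone, with darglitazone and between the drugs, and BBC3 with pioglitazone was −0.04. Over all genes, pioglitazone calls numbered 74 with DESeq2, 223 with no count filter and 14 with thinned counts, against 0 reported; leaving out a library or line gave 0 to 14, with 14 without the MOLM-14 pioglitazone library and 5 without MOLM-14. Darglitazone calls numbered 6, 76 and 2 in these settings, with 0 to 3 in leave-outs, and calls between the drugs 12, 88 and 1, with 0 to 4. The response between lines had 124 calls with no count filter, 2 with thinned counts, 0 with protein-coding transcripts and 0 to 22 in leave-outs, against 1 reported. Genes differing between lines numbered 7503 to 12644, and 33 to 43 of 60 member pairs passed. Of 210 recomputed values of the largest member differences between lines, all kept their direction and 209 their call; BID in KG-1a against MV4-11 was −0.47 without the 3 libraries in doubt. These differences were picked as the largest of each member in these same data, which favours their keeping the call. Over all 41 called member pairs, 31 kept their call with each library left out in turn. BCL2 in OCI-AML3 against MV4-11 kept it in 1 of 12 such fits. Depth limits BCL2A1 in MV4-11, BBC3 in KG-1a and every value of the OCI-AML3 pioglitazone library.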
